A study of Mus musculus with 2 samples.

Results

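Elastic fibre and microfibril genes were examined in bone marrow cells of Cpdm mice and wildtype mice. The set was named as 10 genes, Eln, Fbn1, Fbn2, Fbln1, Fbln2, Fbln5, Efemp1, Efemp2, Ltbp2 and Mfap5, and was put together because Ltbp2 stood out in these same arrays, so the values below are a description and none is a test. All Affymetrix probe sets annotated with exactly 1 gene, that gene being a member, were taken, which gave 15 probe sets of 8 genes, out of 18193 genes with a probe set in all. Fbn1 and Efemp2 had no such probe set in the annotation used and were not analysed here.

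The samples were marrow cultures of each genotype, with 1 array per genotype. Cpdm mice are homozygous for the spontaneous chronic proliferative dermatitis mutation, which removes functional SHARPIN, a subunit of the complex that builds linear ubiquitin chains. Wildtype mice served as the controls. Cells from the marrow were left unsorted and grown for 10 days with ascorbic acid at 50 µg/ml and β-glycerophosphate at 10 mM, an osteogenic medium. No further treatment is named for either genotype. The sources used here do not give age, sex or number of the mice, and each genotype is represented by a single array. There is therefore no replicate error, and every ratio below compares 2 arrays, not 2 populations of mice.

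Elastic fibres give tissues their recoil. They consist of a core of cross-linked elastin, encoded by Eln, laid down on a scaffold of microfibrils, which are polymers of fibrillins (Fbn1, Fbn2). Fibulins and microfibril-associated glycoproteins bind this scaffold and guide elastin onto it, and microfibrils also hold latent growth factors of the TGF-β family in the matrix, which is their best known role in bone.

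Signals are on the linear MAS5 scale of the array, on which the median probe set read 27.6 for Cpdm and 28.1 for wildtype. A floor was set at the 40th percentile of each array, 18.5 for Cpdm and 18.7 for wildtype, and lower signals were raised to it before a ratio was formed, so that a ratio with 1 array under its floor is a lower bound. A gene was called measured if the probe set with its highest mean signal reached the floor in at least 1 array. The 18 bacterial and phage spike-ins had log2 ratios from -0.22 to 0.20. They are hybridisation controls, so their range leaves out differences between cultures or RNA samples. A robust SD of 0.32 log2 units for each probe set followed from how far probe sets of the same gene disagreed. Of the 15 member probe sets, 9 reached the floor on both arrays, 2 for Cpdm alone, 0 for wildtype alone and 4 on neither.

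All 8 genes with a probe set were measured, of which 6 reached the floor on both arrays. Ltbp2, Mfap5, Efemp1 and Fbln2 were at least 2-fold higher in Cpdm, 0 of the 8 were at least 2-fold lower, and Eln, Fbn2, Fbln1 and Fbln5 lay between. Among all 14055 measured genes, 5.84% were at least 2-fold higher and 5.98% at least 2-fold lower in Cpdm. Since the set was chosen on this same contrast, and Efemp1 was measured only through its Cpdm signal, the count of 4 describes the set and was not set against those shares. The smallest log2 ratio among the 4 higher genes was 1.86. Among the other 4 the largest was 0.34, but Fbn2 has only a lower bound of 0.04, and it passed 2-fold with a floor at the 20th percentile (1.22) and with no floor (1.13).

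**Figure D1:**
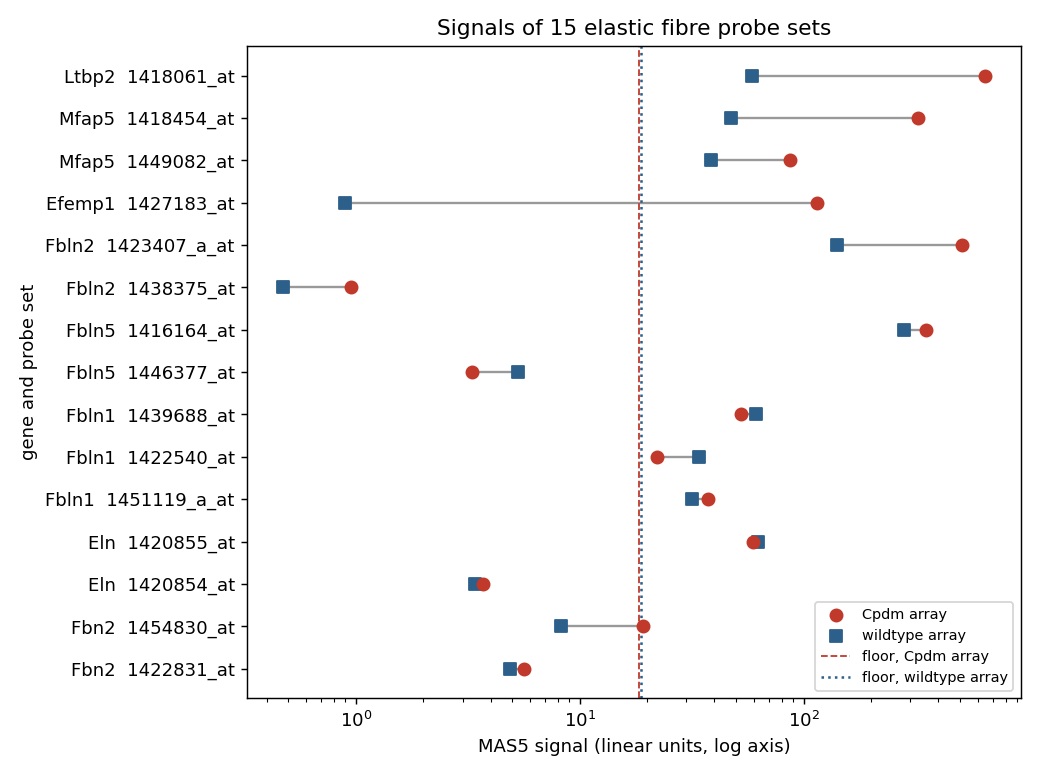
Signals of the 15 elastic fibre and microfibril probe sets in the Cpdm array (red circles) and the wildtype array (blue squares), on a log axis in linear MAS5 units, with the floor of each array as a vertical line. Probe sets of Ltbp2, Mfap5, Efemp1 and Fbln2 above the floor lie further right in the Cpdm array, at 648 against 58.7 for Ltbp2, whereas those of Eln, Fbln1 and Fbln5 lie close together.

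Of the genes of structural proteins of the fibre, Eln was near equal and Fbn2 could not be compared. Eln, the gene of the elastin precursor tropoelastin, read 59.2 in Cpdm and 62.4 in wildtype, a log2 ratio of -0.08 that lies inside the range of the spike-ins. Its other probe set was under the floor in both, at 3.69 in Cpdm and 3.42 in wildtype. Fbn2, a fibrillin prominent in developing tissues, read 19.2 in Cpdm, just over the floor, and 8.24 in wildtype, below it. Its other probe set was below the floor at 5.63 in Cpdm and 4.86 in wildtype. The bound on the Fbn2 ratio was a log2 of 0.04, so the size of any difference in this fibrillin cannot be read. By the Eln probe set over the floor, the elastin signal was thus near equal, and Fbn2 signals were barely above the floor or below it.

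Among the members, the transcripts of the microfibril-binding proteins outside the fibulins, Ltbp2 and Mfap5, were higher in Cpdm. Ltbp2 encodes a secreted protein that binds fibrillin microfibrils and, unlike its relatives, is not known to bind latent TGF-β. It read 648 in Cpdm and 58.7 in wildtype, which is 11.0-fold higher in Cpdm (log2 ratio 3.47). Both signals were above the floor, and only 1 probe set carried the gene, so no further probe set tells how far the size depends on its probes. Ltbp2 ranked 3 from the top among the 12395 genes that reached the floor on both arrays, and 5 among all 14055 measured genes. The set was chosen because of Ltbp2 on these same arrays, so its rank is a description only.

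Mfap5 encodes a small microfibril-associated glycoprotein, also called MAGP-2, which binds fibrillin and, through an integrin-binding motif, cells. Its brighter probe set read 323 in Cpdm and 47.3 in wildtype, or 6.83-fold higher. The other Mfap5 probe set read 86.9 in Cpdm and 38.5 in wildtype, or 2.26-fold higher. Both gave a higher signal in Cpdm, but their folds differed by 3.03 times, more than the usual disagreement between probe sets, so the size of the difference is uncertain. By the brighter probe set Mfap5 ranked 18 among those 12395 genes.

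The 4 fibulin genes among the measured members were Fbln1, Fbln2, Fbln5 and Efemp1, whose product is also called fibulin-3, and their ratios ranged from near equal to several-fold higher. Efemp1, a short fibulin of connective tissue and the retina, read 115 in Cpdm and 0.893 in wildtype. The wildtype value is far under the floor, where MAS5 signals are mostly noise, so the difference is given as at least 6.16-fold higher in Cpdm. A single probe set carried this gene. For scale, 4.96% of the 34945 probe sets with 1 gene were above the floor in the Cpdm array only and 5.21% in the wildtype array only.

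Fbln2, a large fibulin found in vessel walls, heart valves and embryonic mesenchyme, read 511 in Cpdm and 140.5 in wildtype, or 3.64-fold higher. The identifier of this probe set ends in _a_at, which marks probes shared by transcripts of the gene. The other Fbln2 probe set was near 0 in both arrays, at 0.948 in Cpdm and 0.471 in wildtype, and does not speak to the difference.

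Fbln5 and Fbln1 differed little. Fbln5, whose product brings tropoelastin onto microfibrils and binds integrins, was well above the floor at 354 in Cpdm and 280.5 in wildtype, a log2 ratio of 0.34. Its other probe set was under the floor, at 3.30 in Cpdm and 5.31 in wildtype. The ratio of Fbln5 is just outside the spike-in range and about as large as 1 robust SD of a probe set.

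Fbln1, a fibulin of basement membranes and elastic fibres, had 3 probe sets over both floors, and they went different ways. They read 52.6, 22.2 and 37.6 in Cpdm against 61.5, 34.1 and 31.7 in wildtype, with log2 ratios of -0.23, -0.62 and 0.25. No direction can be given for Fbln1.

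**Figure D2:**
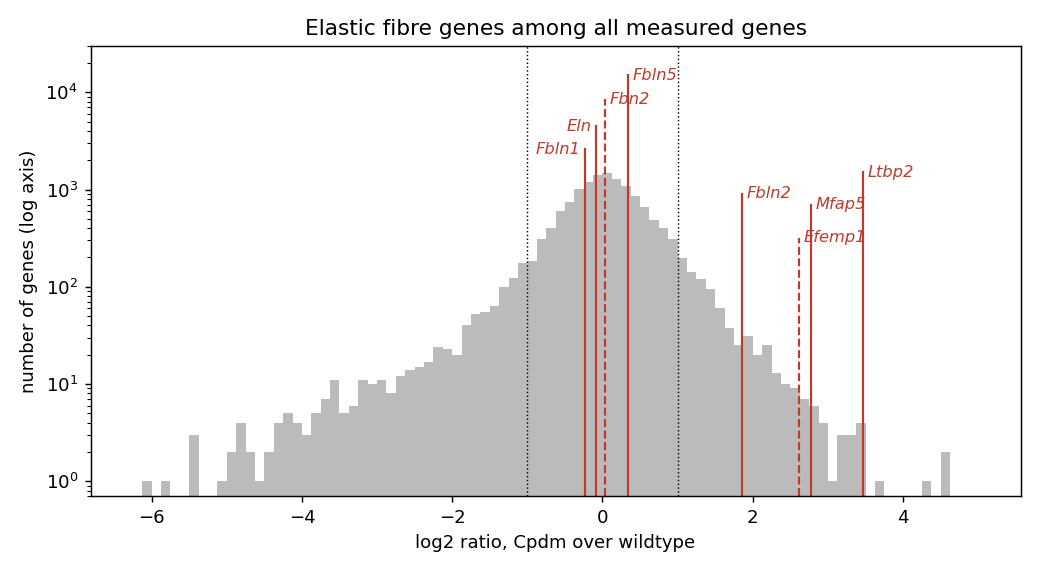
Log2 ratio of Cpdm over wildtype for all 14055 measured genes (grey histogram, number of genes on a log axis), with the 8 elastic fibre and microfibril genes as red lines, dashed where 1 array was under the floor, and dotted lines at 2-fold. The heights of the red lines carry no value. Ltbp2 at 3.47, Mfap5 at 2.77, Efemp1 at no less than 2.62 and Fbln2 at 1.86 lie in the thin upper tail. The other 4 are drawn between -0.23 and 0.34, where Fbn2, at 0.04, is only a lower bound.

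The sequences before the start sites of the genes that were higher are shown because these genes stood on the same side in the array pair, and Fbln5, which was near equal, offers a comparison. Promoter windows of 300 bases, from 250 before to 50 after the start, came from RefSeq on build GRCm38.p6, which holds 1 window each for Ltbp2, Efemp1 and Fbln2 and several for Fbln5, of which the first listed is given. Each is written 5′ to 3′ on the strand of the gene, with motif matches in capitals.
Ltbp2, chr12:84876442-84876741, minus strand: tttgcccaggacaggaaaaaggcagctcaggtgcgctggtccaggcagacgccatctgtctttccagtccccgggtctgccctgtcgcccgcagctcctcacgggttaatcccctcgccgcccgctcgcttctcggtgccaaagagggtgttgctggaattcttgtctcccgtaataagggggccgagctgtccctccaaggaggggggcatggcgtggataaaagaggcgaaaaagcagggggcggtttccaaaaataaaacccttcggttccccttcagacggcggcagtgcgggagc
Efemp1, chr11:28852955-28853254, plus strand: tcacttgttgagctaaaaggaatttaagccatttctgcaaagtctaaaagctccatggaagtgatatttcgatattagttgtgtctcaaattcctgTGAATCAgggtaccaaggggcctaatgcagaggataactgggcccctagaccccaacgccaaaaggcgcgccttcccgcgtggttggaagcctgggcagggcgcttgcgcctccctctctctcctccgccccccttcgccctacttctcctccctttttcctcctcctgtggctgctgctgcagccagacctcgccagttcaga
Fbln2, chr6:91212514-91212813, plus strand: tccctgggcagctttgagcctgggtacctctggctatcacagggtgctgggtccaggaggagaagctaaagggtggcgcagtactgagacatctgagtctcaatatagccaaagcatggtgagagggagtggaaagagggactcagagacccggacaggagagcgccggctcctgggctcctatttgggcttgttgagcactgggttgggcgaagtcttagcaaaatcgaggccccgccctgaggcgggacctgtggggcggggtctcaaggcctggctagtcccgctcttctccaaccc
Fbln5, chr12:101819070-101819369, minus strand: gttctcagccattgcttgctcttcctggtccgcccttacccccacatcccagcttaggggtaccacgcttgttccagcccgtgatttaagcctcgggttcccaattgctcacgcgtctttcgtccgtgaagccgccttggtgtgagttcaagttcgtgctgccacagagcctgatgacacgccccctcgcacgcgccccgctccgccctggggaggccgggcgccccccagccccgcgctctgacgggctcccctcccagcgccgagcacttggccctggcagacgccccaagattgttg

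These windows were searched on both strands for 7 motifs, chosen after the values were known. They were the AP-1 site TGANTCA, the TEAD site GGAATG, the RUNX site TGTGGT, the SMAD box GTCTAGAC, the core CAGACA of the SMAD-bound CAGA box, the TATA box TATAAA and the NF-κB site. The AP-1 site begins at position -154 from the Efemp1 start, and it is the 1 match in the 4 windows printed. The other Fbln5 window, not printed, holds the CAGA core at position -15, and both overlapping Fbln1 windows hold it as well. Of all 32851 windows in the table, 7.81% hold the AP-1 site, 14.7% the TEAD site, 16.8% the RUNX site, 0.213% the SMAD box, 21.0% the CAGA core, 13.6% the TATA box and 4.51% the NF-κB site. The CAGA core can stand inside longer SMAD sites, but none of the other motifs contains another. The windows of Ltbp2, Efemp1 and Fbln2 therefore share none of these motifs, and no window was held for Mfap5. The printed windows differ in CpG content as well, with 20 CpG pairs for Ltbp2, 11 for Efemp1, 10 for Fbln2 and 24 for Fbln5. The median over all windows was 7. The other Fbln5 window holds 8, so the place of Fbln5 depends on which start site is taken.

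Other genes of elastic fibre biology were compared in 7 lists. Outside the members, 73 of 93 listed genes were measured, and their median log2 ratio was -0.05. Of these, 8 passed 2-fold upwards in Cpdm, 15 passed it downwards and 50 did neither. Over all 14055 measured genes, 5.84% were at least 2-fold higher and 5.98% at least 2-fold lower, and the list counts below stand beside these shares. The lists were chosen with earlier results known, so their counts were not tested against the shares. The median over all measured genes was 0.03. The 8 members, chosen on this contrast, had a median of 1.10, which lies in the gap between Fbln5 and Fbln2 and was 0.34 without probe sets ending in _s_at, _x_at or _a_at, so nothing is read from it. Below, a list is described by its counts and median only.

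Enzymes that cross-link elastin and the proteins that escort it had 1 of 8 measured genes higher and 1 lower, with a median of 0.15. Loxl1, the lysyl oxidase that fibulin-5 tethers to elastic fibres, read 362 in Cpdm and 127 in wildtype, or 2.85-fold higher. Loxl4, another lysyl oxidase, read 26.4 in Cpdm and 231 in wildtype, or 8.75-fold lower, with a second probe set under the floor in Cpdm that was at least 4.17-fold lower. These 2 members of the same enzyme family thus stood on opposite sides.

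A list of other microfibril-associated proteins, gathered partly by gene name or family, had 0 of 11 measured genes higher and 2 lower, with a median of -0.30. Not every gene in it, Mfap3l included, encodes an established part of microfibrils. Mfap3l was 2.55-fold lower, at 38.8 in Cpdm against 99.1 in wildtype. Its other probe sets, under the floor in Cpdm, were at least 1.57-fold and 1.25-fold lower. Fbln7, a further fibulin, was at least 2.18-fold lower, at 17.2 in Cpdm and 40.3 in wildtype. The count of 2 lower became 1 with the mean over probe sets or the floor at the 60th percentile, and 4 with no floor. Mfap2, which encodes MAGP-1 and is the closest relative of Mfap5, was near equal at 184 in Cpdm and 181 in wildtype. It was named after its value was seen, because of that relation. Mfap2 thus showed no excess like that of Mfap5; the difference between them was not tested.

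The latent TGF-β binding proteins and the ligands that microfibrils hold had 0 of 11 measured genes higher and 3 lower, with a median of -0.04. Ltbp1, the relative of Ltbp2 that binds latent TGF-β and anchors it to microfibrils, read 136 in Cpdm and 432 in wildtype, or 3.18-fold lower, opposite to Ltbp2. A second Ltbp1 probe set was under the floor in Cpdm and at least 2.11-fold lower. The bone morphogenetic protein genes Bmp4 and Bmp7 were lower by 3.15-fold and 2.78-fold, where the Cpdm signal of Bmp7 was 23.4 and near the floor. Ltbp3 and Ltbp4 were near equal, with log2 ratios of -0.19 and -0.20, and were named after their values were seen as the remaining relatives of Ltbp2. Among the 4 genes of that family Ltbp2 was thus higher, Ltbp1 lower and the other 2 near equal.

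Secreted ADAMTS and ADAMTS-like proteins, several of which bind fibrillin, had 1 of 7 measured genes higher and 2 lower, with a median of -0.25. Adamtsl4, whose product promotes fibrillin microfibril deposition, read 149 in Cpdm and 44.4 in wildtype, or 3.37-fold higher. Only 1 probe set carried it, with an identifier ending in _a_at, and without such probe sets 0 genes of the list were higher. Adamts6 and Adamtsl3 were 2.09-fold and 2.08-fold lower, just past the 2-fold line. The second Adamts6 probe set, close to the floor, did not share that difference, at 18.6 in Cpdm and 16.7 in wildtype.

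Enzymes that degrade elastin and their inhibitors had 1 of 12 measured genes higher and 2 lower, with a median of -0.18. The inhibitor gene Timp3 read 2109 in Cpdm and 726 in wildtype, or 2.91-fold higher, and its 3 other probe sets gave 2.62-fold, 2.52-fold and 1.89-fold. The elastase inhibitor gene Slpi read 571 in Cpdm and 2028 in wildtype, or 3.55-fold lower. The matrix protease gene Mmp7 was at least 2.81-fold lower, at 13.3 in Cpdm, which is below the floor, and 52.0 in wildtype. The neutrophil elastase gene Elane was below the floor in both arrays.

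Integrin subunits that bind fibrillins, fibulins or latent TGF-β had 1 of 9 measured genes higher and 0 lower, with a median of 0.48. Itgb8, whose product with the αv subunit activates latent TGF-β, read 112 in Cpdm and 23.1 in wildtype, or 4.86-fold higher, with the wildtype signal near the floor.

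Genes known to respond to TGF-β went both ways, with 5 of 16 measured genes higher and 5 lower and a median of 0.32. Ltbp2 is itself in this list, so its place there is not separate evidence. The other 4 higher genes were the contractile protein gene Tagln, the feedback inhibitor gene Pmepa1, and the matrix protein genes Tgfbi and Ccn2, with log2 ratios of 2.22, 1.96, 1.46 and 1.25. The 5 lower genes were Bambi, Smad6, Col1a1, Id3 and Id1, with log2 ratios of -3.65, -3.23, -1.59, -1.45 and -1.20. Genes on both sides have other ties. Among the higher ones, Tagln is also a smooth muscle and myofibroblast marker below. Among the lower ones, Smad6, Id1 and Id3 also respond to bone morphogenetic proteins, Bambi encodes a decoy receptor of both pathways, and Col1a1 is also an osteoblast marker. Whether TGF-β signalling differed was not tested. Pmepa1, Tgfbi, Ccn2, Col1a1, Id3 and Id1 were named after their values were seen.

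**Figure D3:**
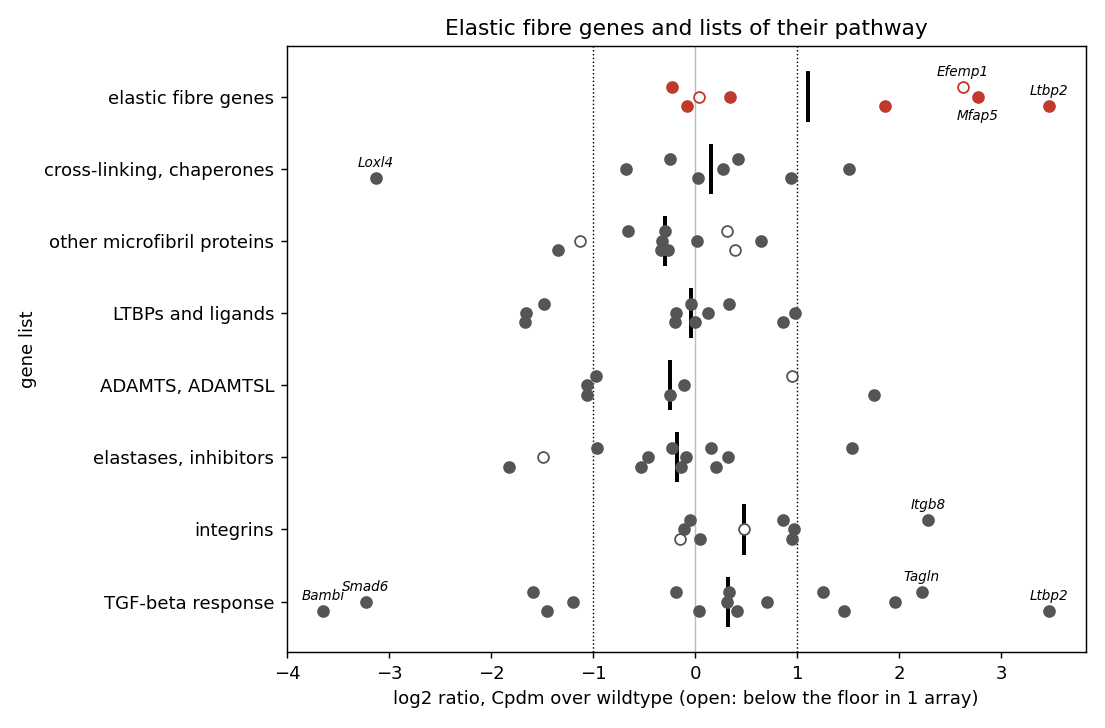
Log2 ratio of Cpdm over wildtype for each measured elastic fibre and microfibril gene (red, top row) and for each measured gene of 7 lists (grey), with open circles where 1 array was under the floor, black bars at the median of each list and dotted lines at 2-fold. The list medians lie between -0.30 and 0.48, the members' median of 1.10 comes from a set chosen on this contrast and is not compared with them, and Ltbp2, which is also in the TGF-β response list, has the highest value shown.

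With 2 arrays, likeness to Ltbp2 can only mean a similar pair of signals. By distance over the log2 signals of both arrays, the 3 named genes nearest to Ltbp2 among those over both floors were Ccl12, Ifi27l2a and Gzmd, at distances of 0.25, 0.50 and 0.53 log2 units. Ccl12, a monocyte-attracting chemokine gene, read 666 in Cpdm and 69.7 in wildtype. These distances mix levels of different probe sets, which are not comparable between genes, and none of the 3 is a matrix gene.

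Markers of the cells that such a culture can hold differed between the arrays as well. Of 9 measured osteoblast markers, 8 were at least 2-fold lower in Cpdm, and their summed signal was 4983 in Cpdm and 15209.7 in wildtype, with Phex below the floor in Cpdm. Of 11 measured smooth muscle and myofibroblast markers, 5 were higher and 1 lower, with summed signals of 12138 in Cpdm and 6244 in wildtype, and Myh11, the marker of mature smooth muscle, was below the floor in both. Of 13 measured fibroblast and marrow stroma markers, 4 were higher and 3 lower, with summed signals of 8861 in Cpdm and 8222 in wildtype. Among them Cd248, a stromal surface protein gene, was at least 7.62-fold higher and the adhesion molecule gene Vcam1 was 4.85-fold higher, with 2.26-fold and at least 8.52-fold by its other probe sets. The 3 lower genes were the proteoglycan gene Dcn, the growth factor receptor gene Pdgfra and the collagen gene Col5a1, with log2 ratios of -1.30, -1.23 and -1.22. Of 12 measured macrophage markers 4 were higher and 0 lower, with summed signals of 16747 in Cpdm and 12559.5 in wildtype.

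Of 11 endothelial markers 6 were measured, 0 were higher and 1 was lower, with summed signals of 267 in Cpdm and 378 in wildtype. Kdr, Eng, Esam, Cldn5 and Robo4 were over both floors, at 75.7 in Cpdm and 97.9 in wildtype for Kdr, while Pecam1, Cdh5, Tek, Emcn and Vwf were below the floor on both arrays. Of 8 measured chondrocyte markers 0 were higher and 3 lower, with summed signals of 300.0 in Cpdm and 1733 in wildtype. The lower ones, Comp, Col11a2 and Col2a1, made up most of the wildtype sum, at 845, 537 and 232 there. They read 54.9, 39.6 and 85.4 in Cpdm, and the remaining markers read at most 46.5 in either array. Of 7 measured adipocyte markers 0 were higher and 1 lower, with 3824 in Cpdm and 4631 in wildtype. By the probe set that stood for each gene, sex-linked transcripts were above the floor on both arrays in a different balance. Xist, the RNA of female cells, read 1113 in Cpdm and 247 in wildtype. Its other probe sets read 100 and 55.1 in Cpdm but 12.9 and 11.8 in wildtype, under the floor. Uty, Eif2s3y and Kdm5d, all Y-linked, read 42.9, 80.6 and 54.6 in Cpdm against 162, 249 and 168 in wildtype. Another Uty probe set was also lower in Cpdm, at 25.1 against 61.4. Another Kdm5d probe set went the other way, at 22.9 in Cpdm and 15.5 in wildtype, the latter under the floor. More cells of a type and more RNA per cell cannot be told apart in such bulk samples, and the part of cell makeup or of sex-linked differences in the values of Ltbp2, Mfap5, Efemp1 and Fbln2 was not tested.

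The members' ratios were recomputed under 8 other ways of handling the signals. Ltbp2 stayed between 3.44 and 3.48 and Fbln2 between 1.84 and 1.87 wherever each gave a value, Fbln2 having none once probe sets ending in _s_at, _x_at or _a_at were left out. Efemp1 ranged from 1.42 to 5.94 and Fbn2 from 0.01 to 1.22, as far as the floor let them.

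**Figure D4:**
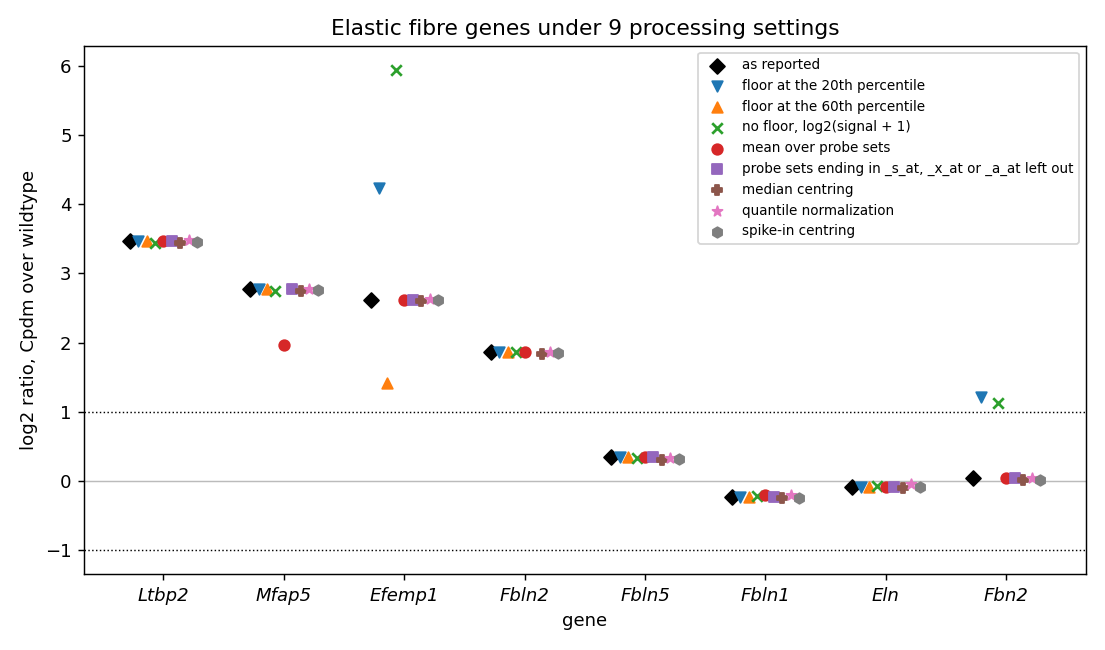
Log2 ratio of Cpdm over wildtype for the 8 elastic fibre and microfibril genes as reported (black diamonds) and under 8 alternative settings (other symbols), with dotted lines at 2-fold. Ltbp2 and Fbln2 hardly move, as the percentile floors and averaging could not change their ratios. Efemp1 spans 1.42 to 5.94 with the choice of floor, Mfap5 drops to 1.97 when its probe sets are averaged, and Fbn2 passes 2-fold only with a low floor or none.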

How the data were processed

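Messenger RNA of mouse marrow cultures was measured on 1 Affymetrix array per genotype, each from 5 µg of total RNA. The authors deposited linear MAS5 signal intensity values for 45101 probe sets, made with GCOS 1.4 and MAS5 per the submitters' processing notes. The mean signal without the lowest and highest 2% was 100 in both columns. The sources used here do not give scaling target, background settings or genome build, and the table holds no detection calls. The platform annotation names 1 gene for 34945 of 45037 non-control probe sets, several for 932, and 9160 are unnamed here.

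No further scaling was applied to the deposited signals in Python 3.11.15 with numpy 2.4.6 and pandas 2.3.3. Signals were raised to a floor, the 40th percentile of each array, the probe set of highest mean log2 signal stood for its gene, and log2 ratios are Cpdm over wildtype. Genes were counted by a rule of size, 2-fold, and no test was possible with 1 array per genotype. The calculation was tested on simulated data, with changes placed only in genes brighter on both arrays than Ltbp2 and Mfap5 in wildtype. Changes near or under the floor, as for Efemp1 and Fbn2, were not covered. Probe sets of a gene give the only error available, and the number of arrays limits the precision. Members and gene lists were chosen with earlier results of these data known. All members were named, with up to 4 genes past 2-fold per pathway list, up to 2 per marker list and the 3 genes likest to Ltbp2. Exceptions are stated, and further marker genes were named where they bear on a cell type. Alternatives were other floors, probe set rules, scalings and a 1.5-fold rule.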

Additional observations from a re-analysis of the deposited data

How the results depend on the processing

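No paired analysis was possible because each genotype has 1 array, and no array can be left out. Across 272 recomputed values, 243 stayed within 1.5 times for counts, or within the robust SD of 0.32 log2 units for ratios and medians, 29 moved further, and 0 values that had passed 2-fold changed sign. The 4 members at least 2-fold higher became 5 with a floor at the 20th percentile or none, as Fbn2 joined, 3 without probe sets ending in _s_at, _x_at or _a_at, as Fbln2 dropped out, and stayed 4 under the other alternatives, the 1.5-fold rule included. The members' median log2 ratio of 1.10 became 1.54 with the floor at the 20th percentile, 1.42 with it at the 60th, 1.49 with no floor and 0.34 without those probe sets, where Fbn2 gained a larger ratio with the lower floor or none, and was not measured with the higher one, and Fbln2 was not measured without those probe sets. The counts over all genes, 821 higher and 840 lower, grew to 1265 and 1397 with the floor at the 20th percentile and to 1515 and 1687 with none. The median of the ADAMTS list moved to -0.61 without those probe sets, that of the integrin list to 0.06 with the floor at the 60th percentile, and that of the cross-linking list changed sign, to -0.20 with the mean over probe sets against 0.15 as reported. Signal over background limits Efemp1 and Fbn2, whose wildtype signals lie under the floor.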
